A study of Mus musculus with 12 samples.

Results

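The pericentral zonation genes are 10 genes that hepatocytes around the central vein of the liver lobule transcribe more than hepatocytes near the portal vein: Glul, Axin2, Lgr5, Tbx3, Rhbg, Slc1a2, Oat, Cyp2e1, Cyp1a2 and Rnf43. They were chosen by name, and for each gene all peaks of histone H3 acetylated at lysine 9 (H3K9ac) were taken that overlapped its gene body or the 5 kb either side of its start by at least 1 bp in the GENCODE M21 annotation of mm10. They are 10 of the 21911 protein-coding gene symbols measured in the same way, and their windows held 29 of the 27334 peak regions obtained by uniting the peak lists of all libraries. H3K9ac is a mark of active promoters and enhancers, and its distribution in livers of adult mice was obtained by ChIP-seq, the sequencing of chromatin immunoprecipitated with an antibody (ab4441).

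The 6 H3K9ac libraries came from 4 groups, none of which had received a treatment other than fixation of the tissue in formaldehyde. C57BL/6J (B6) is the inbred strain of the mouse reference genome and gave 2 libraries from separate mice. MSM/Ms (MSM), inbred from wild mice of Japan, also gave 2 libraries from separate mice. The reciprocal crosses, F1 BM with the mother from B6 and the father from MSM, and F1 MB with the parents exchanged, gave 1 library each, so values of the hybrids had no replicate. Each peak carried a fold enrichment, a linear ratio of signal to background given by the peak caller. Whole liver was used, so a level at a pericentral gene is an average over all zones, and fewer marked cells cannot be told apart from less mark per cell.

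Wnt signals from the endothelium of the central vein stabilise beta-catenin in the adjacent hepatocytes, where beta-catenin joins T cell factor proteins at target genes. Axin2, Lgr5, Rnf43 and Tbx3 belong to this signalling pathway or answer to it, while Glul, Rhbg, Slc1a2 and Oat serve the capture of ammonia and the handling of glutamate, and Cyp2e1 and Cyp1a2 encode cytochrome P450 enzymes. Periportal hepatocytes in contrast carry out urea synthesis and gluconeogenesis.

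The lists differed in length, from 11619 peaks in B6 replicate 2 to 22968 in B6 replicate 1, with 17310 and 17584 in MSM, 20173 in F1 BM and 13235 in F1 MB. Median fold in a list was lowest in F1 BM (3.38) and between 4.49 and 5.23 in the other 5 libraries. Both ends of the range of list lengths thus belonged to B6. Of the defining genes of hepatocytes, 5 of 6 had a peak within 1 kb of the start in every library, against 23.6% of all genes. The sixth, Hnf4a, had peaks in its window in every library. None of the 5 Kupffer cell and none of the 4 stellate cell markers had a peak at its start in any library. The same was the case for 54.2% of all genes. Of the 5 endothelial markers, 0 to 4 had a peak at the start (3 and 0 in B6, 2 and 4 in MSM, 4 in F1 BM and 0 in the other hybrid). In B6 replicate 1 only, 1 of 4 cholangiocyte and 1 of 4 lymphocyte markers had one. Over all genes the share with a peak at the start ran from 27.9% in B6 replicate 2 to 44.2% in B6 replicate 1. Without a peak at the start, the Kupffer cell marker Csf1r had one in its window in B6 replicate 1 (fold 4.54). The endothelial marker Pecam1 likewise had window peaks in B6 replicate 1, both MSM libraries and F1 BM (4.05 to 5.23).

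The sequences below carry the regions to which the results return. They comprise the summits of those regions upstream of Cyp2e1 that had a peak in all 6 libraries, and that of the intronic region of Lgr5. They also comprise a stretch before the RefSeq start of Slc1a2 that stops short of it, and the TATA box stretches of Cyp2e1 and Cyp1a2. They were read 5′ to 3′ along the gene from the RefSeq sequence of the B6 strain (GRCm38.p6, the same build as mm10), and capitals mark matches, on either strand, to CTTTGAT (a T cell factor motif), TATAAA (the TATA box) or GCGTG (the core to which the aryl hydrocarbon receptor binds). No match overlapped one of another motif, and MSM bases at these places were not read.

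Cyp2e1 upstream region, chr7:140760136-140760435, + strand: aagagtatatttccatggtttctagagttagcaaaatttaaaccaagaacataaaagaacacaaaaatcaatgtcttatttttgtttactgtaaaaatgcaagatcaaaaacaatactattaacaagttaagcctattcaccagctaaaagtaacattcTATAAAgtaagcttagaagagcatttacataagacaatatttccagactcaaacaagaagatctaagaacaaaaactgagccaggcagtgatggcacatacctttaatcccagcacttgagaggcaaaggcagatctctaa
Cyp2e1 promoter-proximal region, chr7:140763120-140763419, + strand: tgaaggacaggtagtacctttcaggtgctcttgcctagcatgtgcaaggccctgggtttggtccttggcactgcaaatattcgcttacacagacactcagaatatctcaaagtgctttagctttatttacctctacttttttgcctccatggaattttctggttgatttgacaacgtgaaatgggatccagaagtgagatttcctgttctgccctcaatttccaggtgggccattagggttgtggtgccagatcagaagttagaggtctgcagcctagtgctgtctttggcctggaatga
Lgr5 intronic region, chr10:115586277-115586576, - strand: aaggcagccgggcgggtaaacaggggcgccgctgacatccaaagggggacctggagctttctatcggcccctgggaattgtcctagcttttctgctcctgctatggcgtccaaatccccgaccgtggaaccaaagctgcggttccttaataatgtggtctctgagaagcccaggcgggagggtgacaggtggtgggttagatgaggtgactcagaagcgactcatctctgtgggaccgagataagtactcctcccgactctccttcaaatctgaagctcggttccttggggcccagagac
Slc1a2 before the RefSeq start, chr2:102706188-102706355, + strand: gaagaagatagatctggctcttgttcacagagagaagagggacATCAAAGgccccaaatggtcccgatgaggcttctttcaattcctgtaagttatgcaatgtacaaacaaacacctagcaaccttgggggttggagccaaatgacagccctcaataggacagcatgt
Cyp2e1 TATA box stretch, chr7:140763779-140763808, + strand: acgacacgtTATAAAatccttgtttctcct
Cyp1a2 TATA box stretch, chr9:57683666-57683695, - strand: gtgggtggtgtTATAAAaggcccctcgtcg

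The RefSeq promoter table (250 bases before to 50 after each start) held 8 promoters of 7 of the genes, with 2 for Rnf43, and none was matched for Lgr5, Tbx3 and Rhbg. TATAAA was found in 2 of the 8 promoters, at base -31 from the RefSeq start in Cyp2e1 and at base -29 in Cyp1a2, against 13.6% of all 32851 promoters in the table. CTTTGAT was found in 1 of the 8, at base -207 of Slc1a2, against 3.73% of all promoters. GCGTG was found in 1 of the 8, at base -71 of a Rnf43 promoter, against 32.4% of all promoters. Among the 29 windows of 300 bases centred on a region's summit, none held CTTTGAT (3.14% of all 27334 such windows), 6 held TATAAA (10.7% of all windows) and 3 held GCGTG (30.7%). These matches describe letters in the B6 sequence and do not show binding. In the same sequence, 98 of the 300 bases of the Cyp2e1 upstream region and 43 of those of its promoter-proximal region were masked as repeats, and so were 200 of the 300 around the summit of Cyp1a2, against a median of 22 over all windows.

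Peaks stood at the start of most pericentral genes. Glul, Tbx3, Oat, Cyp2e1, Cyp1a2 and Rnf43 had a peak within 1 kb of the GENCODE start in all 6 libraries. These are 6 of 10 genes, where 23.6% of all protein-coding genes had such a peak in all 6. Axin2 had one in 5 libraries and Lgr5 in 1, B6 replicate 1. Rhbg and Slc1a2 had none in any library, which was the case for 54.2% of all genes. In the single libraries, between 6 (F1 BM) and 8 (B6 replicate 1) of the 10 genes had a peak at the start. Over all genes the share was 35.3% in F1 BM and 44.2% in B6 replicate 1. With peaks of a −log10 q of at least 5 alone, 3 of the 10 genes were marked in every library, against 19.3% of all genes, and 1 of the 10 was when each list was cut to the same covered length, against 11.4%.

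**Figure D1:**
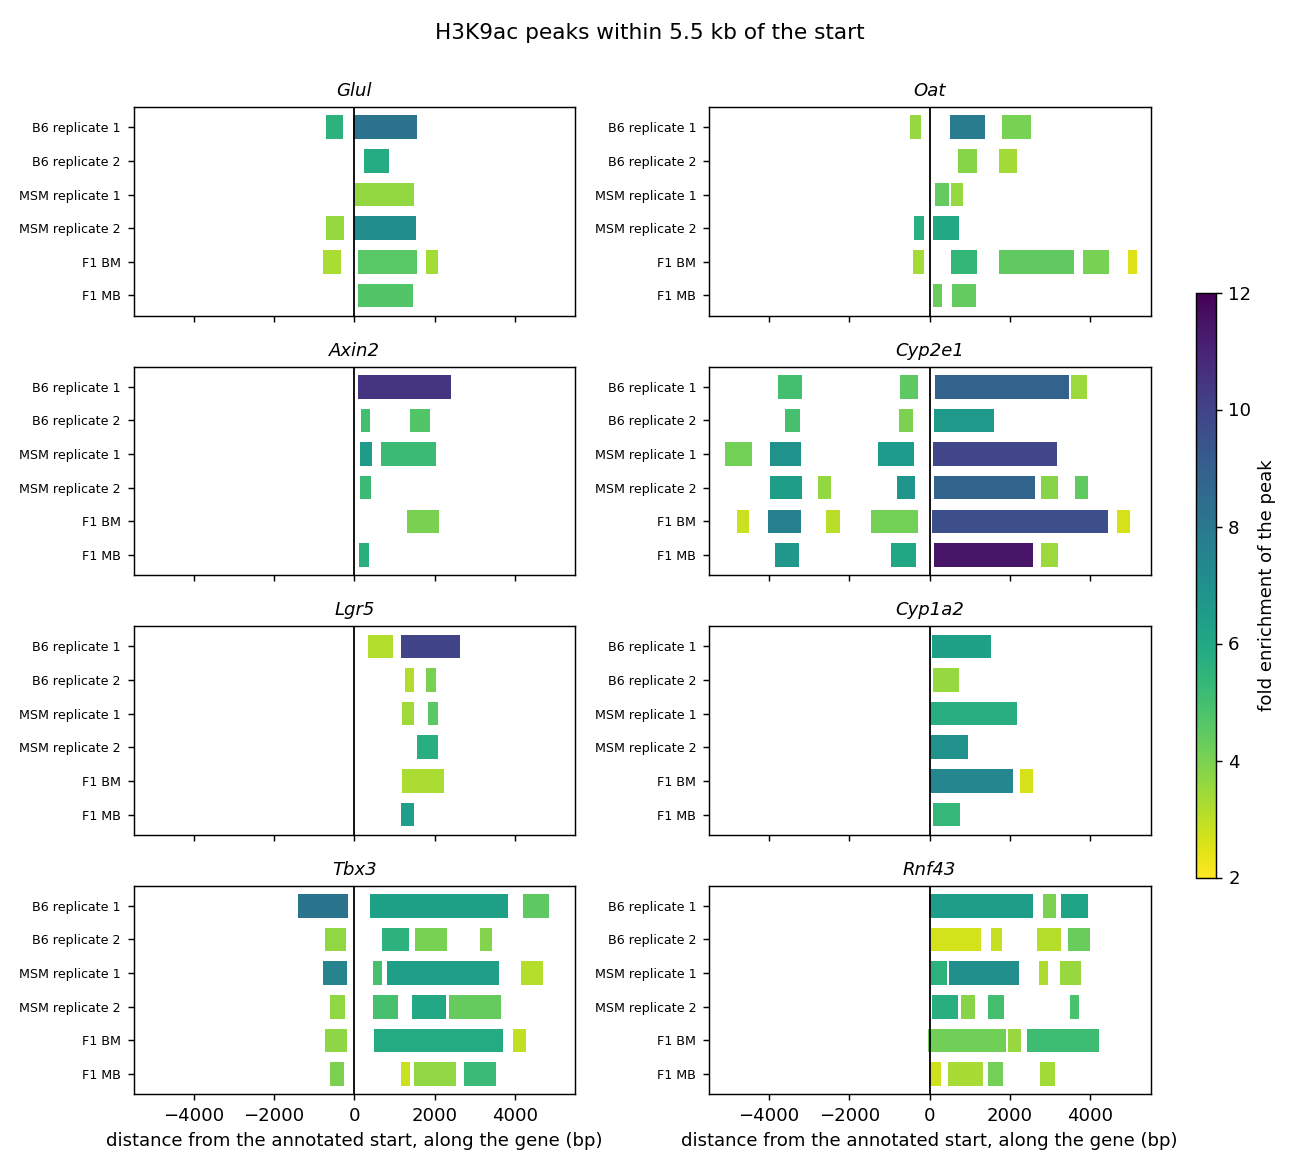
Peaks of the 8 pericentral genes that had a peak in every library, drawn by distance in bp from the GENCODE start along the gene, with 1 row per library and the colour giving the fold enrichment of each peak. Of the 120 peaks with a summit within 5 kb of a start, counted in each library, 92 have it downstream, and no share over all genes was obtained. Only Cyp2e1 has upstream peaks beyond 3 kb in all 6 libraries.

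Of the 120 peaks with a summit within 5 kb of a start, counted over the 6 libraries, 92 had the summit downstream of it. A place with a peak in several libraries is counted once for each. No share over all genes was obtained, so this count describes the listed genes alone. Peaks were joined across gaps of up to 500 bp, and the joined stretch nearest the start was measured alone. At Glul, Cyp2e1, Cyp1a2 and Rnf43 this stretch reached further downstream than upstream in all 6 libraries, at Oat in 4 and at Tbx3 in none. At Tbx3 it was the upstream peak in every library, and the peaks from 385 bp on in the gene were not part of it. A longer downstream reach in all 6 libraries was found at 60.9% of all genes with a peak at the start in every library. The GENCODE start base was under no peak in any library at Tbx3, Oat and Cyp2e1. These are 3 of the 6 genes with a peak at the start in all 6 libraries, near the 43.8% of all such genes. At Glul the start base was under a peak in 2 libraries, at Cyp1a2 in 1 and at Rnf43 in 3. The RefSeq starts of Cyp2e1 and Rnf43 lie 80 and 365 bp further downstream and were not counted here.

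Cyp2e1, which oxidises ethanol and other small molecules, had the highest mean of the highest fold among the 10 genes. Its highest fold was 8.89 and 6.58 in B6, 9.91 and 8.82 in MSM, 9.59 in F1 BM and 11.4 in F1 MB. Its mean was 9.20 ± 1.59 (SD, n = 6 libraries), and it was above the fold of Tbx3, the next gene in the order, in 6 of 6 libraries. In B6 replicate 1, however, Axin2 (10.5) and Lgr5 (9.99) were above it. The window of the gene (ENSMUSG00000025479.9, chr7:140763739-140774987, + strand) held 27 peaks over the 6 libraries, of which the highest lay 290 to 514 bp into the gene in every library. Peaks covered 4796 and 2214 bp of its window of 16249 bp in B6, 5347 and 4826 bp in MSM, 7357 bp in F1 BM and 4140 bp in F1 MB. As shares, the lowest of these values is 13.6% of the window and the highest 45.3%.

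Cyp1a2, the constitutive enzyme of its family in liver, had a single peak within 1 kb of its start in each library, and F1 BM had a further peak from 2242 to 2583 bp into the gene. Its highest fold was 6.33 and 3.59 in B6, 5.71 and 6.96 in MSM, 7.42 in F1 BM and 5.34 in F1 MB. B6 replicate 2 was the lowest, and B6 replicate 1 lay between both MSM libraries. The peaks covered 1449 and 637 bp in B6, 2177 and 933 bp in MSM, 2395 bp in F1 BM and 664 bp in F1 MB. Its divergent neighbour Cyp1a1, the family member induced by aryl hydrocarbon receptor ligands, starts 4225 bp away and had no peak within 1 kb of its start in any library.

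Glul, which makes glutamine from ammonia and glutamate in a narrow ring of cells at the central vein, had a highest fold of 8.18 and 5.84 in B6, 3.62 and 7.10 in MSM, 4.58 in F1 BM and 4.72 in F1 MB. Between them the MSM libraries held both the lowest value and one close to the B6 mean. The peak ran from near the start to 853 to 1554 bp into the gene in the parental libraries. A second peak centred at -422 bp from the start was present in B6 replicate 1, MSM replicate 2 and F1 BM only, at folds of 5.59, 3.58 and 3.25. The starts of the neighbouring genes Mir8114 and Teddm2 lay within 1 kb of these peaks, so the mark there cannot be given to Glul alone.

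Oat, the ornithine aminotransferase that feeds glutamate formation, had a highest fold of 7.85 and 3.82 in B6, 4.41 and 6.01 in MSM, 5.37 in F1 BM and 4.39 in F1 MB. B6 and MSM overlapped in fold. Its peaks covered 1861 and 905 bp in B6, 641 and 894 bp in MSM, 3656 bp in F1 BM and 851 bp in F1 MB. F1 BM held 5 peaks in the window, of which those centred 3943 and 5026 bp into the gene were found in no other library. The window of Oat lies within an annotated intron of Fgfr2.

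Slc1a2, the glutamate transporter, had no peak in its window in either B6 library, in MSM replicate 2 or in F1 MB. MSM replicate 1 had 1 peak of fold 3.52 centred 98464 bp into the gene. F1 BM had 2 peaks, of fold 3.04 and 4.61, centred 27749 and 48000 bp into the gene. The second of these covered 1248 bp and began just after the RefSeq start of Slc1a2, which lies 47779 bp downstream of the GENCODE start. The stretch printed above with its T cell factor match ends at chr2:102706355, before that start at 102706438. The bases next to the start are thus not printed. Rhbg, an ammonium transporter of the plasma membrane, had no peak in any library (ENSMUSG00000104445.1, chr3:88242874-88254709, - strand).

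Axin2, a scaffold of the complex that degrades beta-catenin and itself a target of Wnt signalling, had a highest fold of 10.5 and 5.03 in B6, 6.51 and 5.20 in MSM, 4.03 in F1 BM and 5.64 in F1 MB. B6 replicate 1 was the highest and the other 5 libraries lay within 4.03 and 6.51. In B6 replicate 1 a single peak covered 2313 bp from 86 bp after the start. In 4 other libraries a narrow peak of 239 to 301 bp stood within the first 448 bp, and in B6 replicate 2 and MSM replicate 1 a second peak followed it. F1 BM lacked the narrow peak and had 1 peak beginning 1312 bp into the gene.

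Lgr5, a receptor for R-spondins that strengthens Wnt signalling, carried its mark inside the first intron. Its highest fold was 9.99 and 4.01 in B6, 4.55 and 5.73 in MSM, 3.27 in F1 BM and 6.42 in F1 MB. A region between 1165 and 2631 bp after the start had a peak in all 6 libraries. The Lgr5 sequence above surrounds the summit in B6 replicate 1, 1353 bp after the start, while the highest summit lay 1831 to 1959 bp after the start in B6 replicate 2, both MSM libraries and F1 BM. Peaks in it covered 1467 bp in B6 replicate 1, where it was a single peak, and 326 bp in F1 MB.

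Rnf43, a ubiquitin ligase that removes Wnt receptors from the cell surface, had a highest fold of 6.47 and 4.29 in B6, 7.02 and 5.71 in MSM, 5.14 in F1 BM and 4.14 in F1 MB. Its peaks lay in the first 4214 bp of the gene, apart from 3 regions between 26355 and 27654 bp into the gene, in an intron. The region centred 27522 bp into the gene was present in B6 replicate 1, MSM replicate 1 and F1 BM at folds of 2.96, 3.88 and 2.50, and the other 2 were present in B6 replicate 1 only.

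Tbx3, a T-box transcription factor downstream of beta-catenin, had a highest fold of 8.15 and 5.59 in B6, 7.48 and 6.02 in MSM, 5.87 in F1 BM and 5.21 in F1 MB. Every library had a peak upstream of the start, in a region from -1409 to -153 bp that lies in an intron of the antisense gene Tbx3os1, and further peaks from 385 bp on in the gene. The upstream region had folds of 8.15 and 3.65 in B6, 7.48 and 3.66 in MSM, 3.70 in F1 BM and 3.97 in F1 MB. Replicates of each strain thus differed by more than the strain means, which were 5.90 and 5.57. The gene body region was closer among libraries, with 6.27 and 5.59 in B6, 6.38 and 6.02 in MSM, 5.87 in F1 BM and 5.21 in F1 MB.

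**Figure D2:**
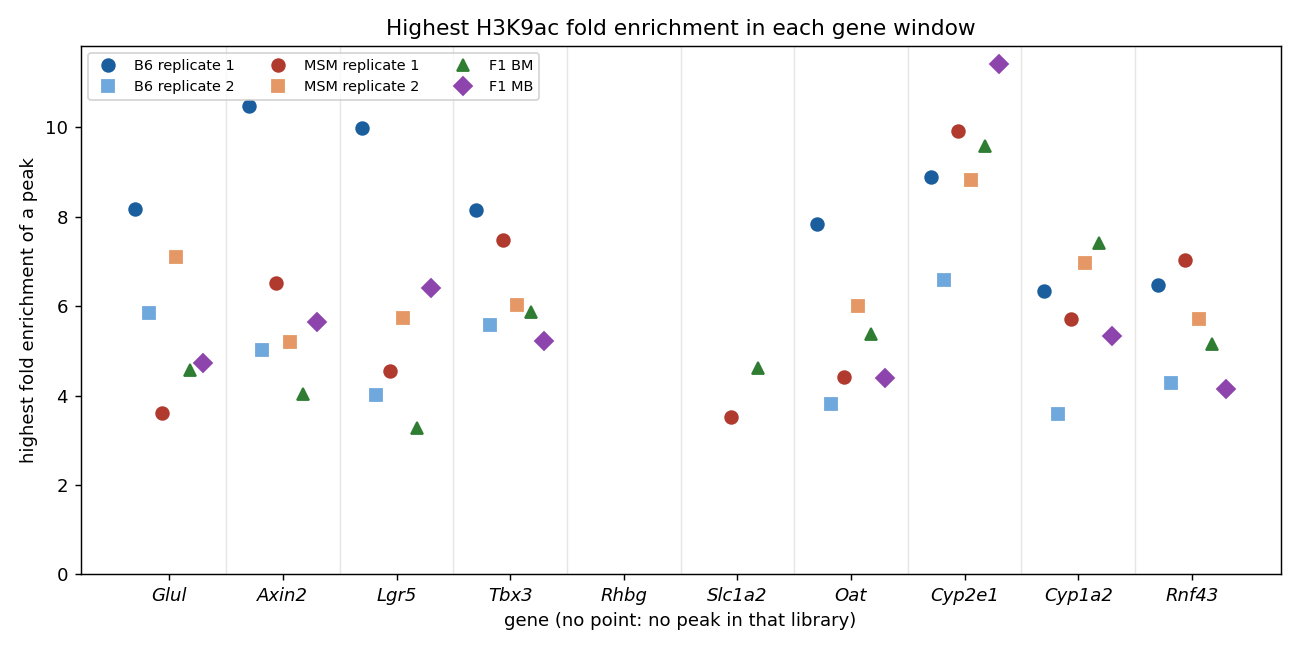
Highest fold enrichment of a peak in the window of each pericentral gene, with 1 point per library and no point where the library had no peak. Cyp2e1 lies between 6.58 and 11.4, Rhbg has no point, and Slc1a2 has points in MSM replicate 1 and F1 BM only.

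After Cyp2e1 the order of mean highest fold was Tbx3 (6.39), Axin2 (6.15), Cyp1a2 (5.89), Glul (5.67), Lgr5 (5.66), Rnf43 (5.46) and Oat (5.31). No neighbours in this part of the order were separated, since each gene was above the next in 2 to 4 of 6 libraries and the SD of each lay between 1.16 and 2.41. In rank among all genes with a peak in the same library, where 100 is the highest, Cyp2e1 stood at 66.7 and 76.4 in B6, 89.3 and 81.1 in MSM, 97.9 in F1 BM and 97.6 in F1 MB. Medians of the other 7 genes with a peak in every library lay between 36.9 for Lgr5 and 62.3 for Glul.

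Of the 29 regions in the windows, 12 lay within 1 kb of a start and 17 further away. Peaks in all 6 libraries were found in 11 of the 29, against 25.3% of all regions. Of the 17 away from a start, 2 were found in all 6 libraries, the Lgr5 intronic region and the Cyp2e1 region centred at -3453 bp from the start, which lies outside annotated genes. A further 11 regions were found in exactly 1 library, against 30.6% of all regions. Of these 11, 7 belonged to F1 BM, 3 to B6 replicate 1 and 1 to MSM replicate 1, while over all regions found in 1 library 22.8% belonged to F1 BM, 56.1% to B6 replicate 1 and 9.26% to MSM replicate 1.

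The comparison of B6 with MSM asks whether the strains differ in acetylation at these genes. In highest fold, the strains overlapped at all 8 genes with a peak in the 4 parental libraries. Over all 6706 genes with such values, both MSM libraries were above both B6 libraries in 8.59% and both B6 libraries above both MSM libraries in 10.8%. Without B6 replicate 1 the other B6 library was below both MSM libraries at 7 of the 8 genes, against 65.4% of all genes. Without B6 replicate 2 the other was above both at 5 of 8, against 67.0%. With 2 libraries against 2, the exact two-sided permutation test cannot give a p below 0.333, so single genes could not pass a threshold of 0.05. limma, which pools the spread over genes, called none of the 8 genes after Benjamini-Hochberg adjustment and none at an unadjusted p under 0.05. Over all 6706 genes it called 0 with MSM higher (0%) and 3 with B6 higher (0.0447%), with 532 at an unadjusted p under 0.05.

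The fitted log2 differences, MSM minus B6 with each library centred on its median, were largest at Cyp1a2 (0.44, SE 0.31, adjusted p = 0.751 by limma) and Glul (-0.41, SE 0.35, adjusted p = 0.792 by limma). Cyp2e1 had 0.32 (SE 0.29) and Rnf43 0.30 (SE 0.31), while Axin2 had -0.29 (SE 0.31) and Lgr5 -0.28 (SE 0.32). Oat had -0.06 (SE 0.32) and Tbx3 0.03 (SE 0.31). Leaving out 1 parental library gave 0.14 to 0.48 at Cyp2e1, 0.14 to 0.46 at Rnf43, -0.45 to -0.11 at Axin2 and -0.56 to -0.012 at Lgr5. At Lgr5 the value nearest to 0 was that without B6 replicate 1. The direction turned at Glul without MSM replicate 1 (0.064) and at Oat without B6 replicate 1 (0.07) or MSM replicate 1 (0.16). At Tbx3 it turned without B6 replicate 1 (-0.10), without MSM replicate 1 (-0.14) and with fold as deposited (-0.0073). Compared as ranks within a library, a scale chosen after seeing the data, both MSM libraries were above both B6 libraries at Cyp2e1, Cyp1a2 and Rnf43, 3 of 8 genes, and no gene had both B6 libraries above. The shares over all genes on this scale were 17.5% and 18.8%.

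In covered length, which counts the bp of the window under peaks, 2 of the 9 genes with a peak in a parental library were apart. Cyp2e1 had more covered bp in both MSM libraries, by a mean of 1581.5 bp with a pooled SD within strains of 1317 bp. The exact permutation p was 0.333, the smallest possible. Oat had more covered bp in both B6 libraries, with a mean difference (MSM minus B6) of -615.5 bp and a pooled SD of 494 bp. The exact permutation p was again 0.333. The nearest libraries of the strains were close at both genes, with 4796 bp in B6 and 4826 bp in MSM at Cyp2e1. At Oat these were 905 bp in B6 and 894 bp in MSM. Over all 11446 genes, 4.97% had more in both MSM libraries and 11.6% more in both B6 libraries. Without B6 replicate 1, which had the longest list, the difference at Oat was -137.5 bp. At Cyp2e1 leaving out B6 replicate 1 gave 2872.5 bp, and leaving out B6 replicate 2 gave 290.5 bp. With equal numbers of peaks taken from each list the strains overlapped at both genes, and Rnf43 had more covered bp in both B6 libraries. When each list was cut to the same covered length, Cyp2e1 and Cyp1a2 had more in both MSM libraries and Axin2 more in both B6 libraries. The cut left 0 bp at Cyp1a2 in B6 replicate 1, where the whole list had 1449 bp. Shares over all genes were not obtained for strain differences in covered length with either kind of cut list. These changes were therefore not read as a result about the pericentral genes.

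**Figure D3:**
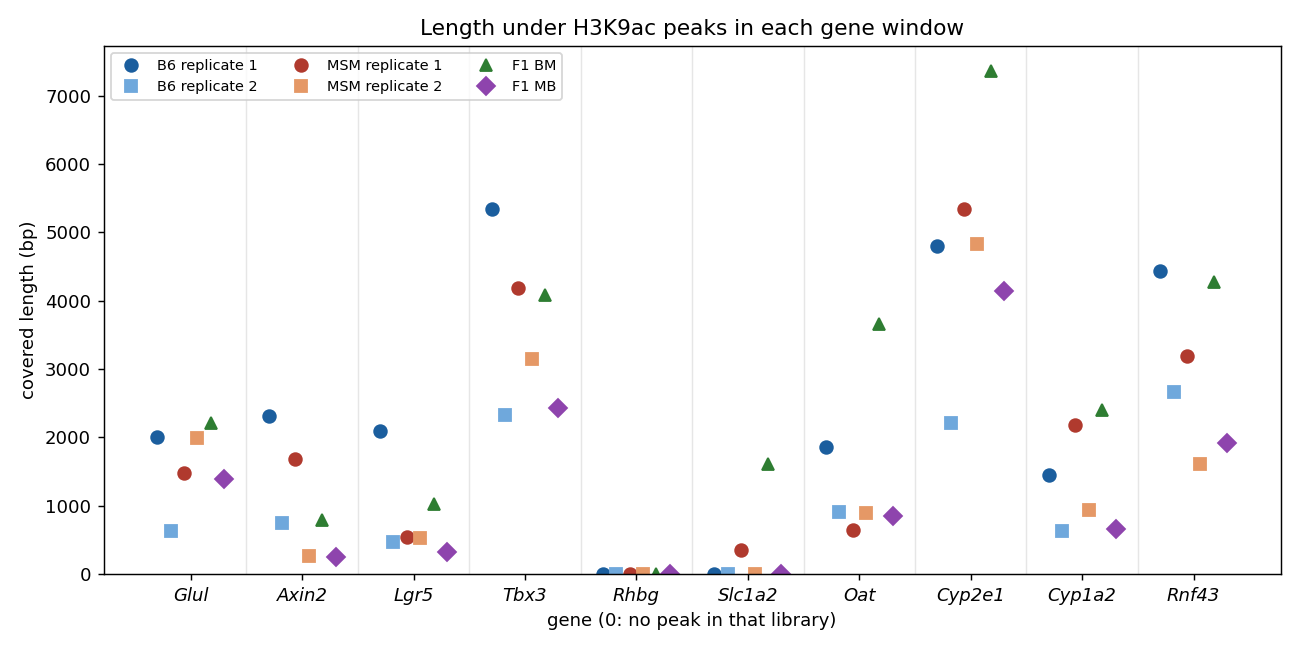
Length in bp under peaks in the window of each pericentral gene, with 1 point per library and 0 where the library had no peak. At Cyp2e1 the MSM libraries (5347 and 4826 bp) lie above the B6 libraries (4796 and 2214 bp), and F1 BM lies above all 4 parental libraries at Glul, Slc1a2, Oat, Cyp2e1 and Cyp1a2.

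The regions of Cyp2e1 were then compared one by one, a unit chosen after seeing the data. Of the 11 regions in the windows with a peak in all 4 parental libraries, 2 were higher in both MSM libraries and 0 in both B6 libraries, against 10.5% and 11.0% of all 7732 such regions. Without B6 replicate 1 the count higher in MSM was 10, against 62.0% of all regions, and without MSM replicate 2 it was 5, against 20.8%. Both regions apart in the 4 libraries lay upstream of Cyp2e1 and are printed above. A further 2 regions upstream of Cyp2e1 had a peak in 2 libraries each, at -4599 bp in MSM replicate 1 (4.11) and F1 BM (2.80) and at -2663 bp in MSM replicate 2 (3.62) and F1 BM (3.07). The region centred at -3453 bp (chr7:140759720-140760569) had folds of 4.97 and 4.94 in B6, 6.91 and 6.48 in MSM, 7.66 in F1 BM and 6.67 in F1 MB. Strain means differed by 1.74, with a pooled SD within strains of 0.215 and an exact permutation p of 0.333. Both hybrids were on the side of MSM, and F1 BM was above both MSM libraries.

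The region centred at -469 bp (chr7:140762269-140763440) had folds of 4.48 and 3.99 in B6, 6.56 and 6.78 in MSM, 4.14 in F1 BM and 6.04 in F1 MB. Strain means differed by 2.44, with a pooled SD of 0.266 and an exact permutation p of 0.333. In fold as deposited, F1 BM lay within the B6 range and F1 MB between the strains. Folds were low over the whole F1 BM list, with a median of 3.38. In highest fold, 61.6% of all genes lay below all 4 parental libraries in F1 BM. The main region, centred 336 bp into the gene, had 8.89 and 6.58 in B6 and 9.91 and 8.82 in MSM, which overlapped.

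Scaled to the median fold of the shared regions in each library, the B6 libraries lay further apart at the regions at -3453 and -469 bp. The region at -3453 bp had 0.594 and 1.02 times that median in B6 and 1.11 and 1.02 times in MSM, so that the higher B6 and the lower MSM library were close. The region at -469 bp had 0.535 and 0.820 times the median in B6 and 1.06 and 1.07 times in MSM. On this scale 5 of the 11 regions, all 3 of Cyp2e1 and those at the start of Cyp1a2 and Rnf43, had both MSM libraries above both B6 libraries and none the reverse, against 19.2% and 18.3% of all regions. limma called neither the region at -3453 bp nor that at -469 bp, with a log2 difference of 0.46 (SE 0.35, adjusted p = 0.789) at -3453 bp and 0.68 (SE 0.35, adjusted p = 0.640) at -469 bp. Over all 7732 regions it called 2 with MSM higher (0.0259%) and 2 with B6 higher (0.0259%), none of them in the windows of the pericentral genes.

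**Figure D4:**
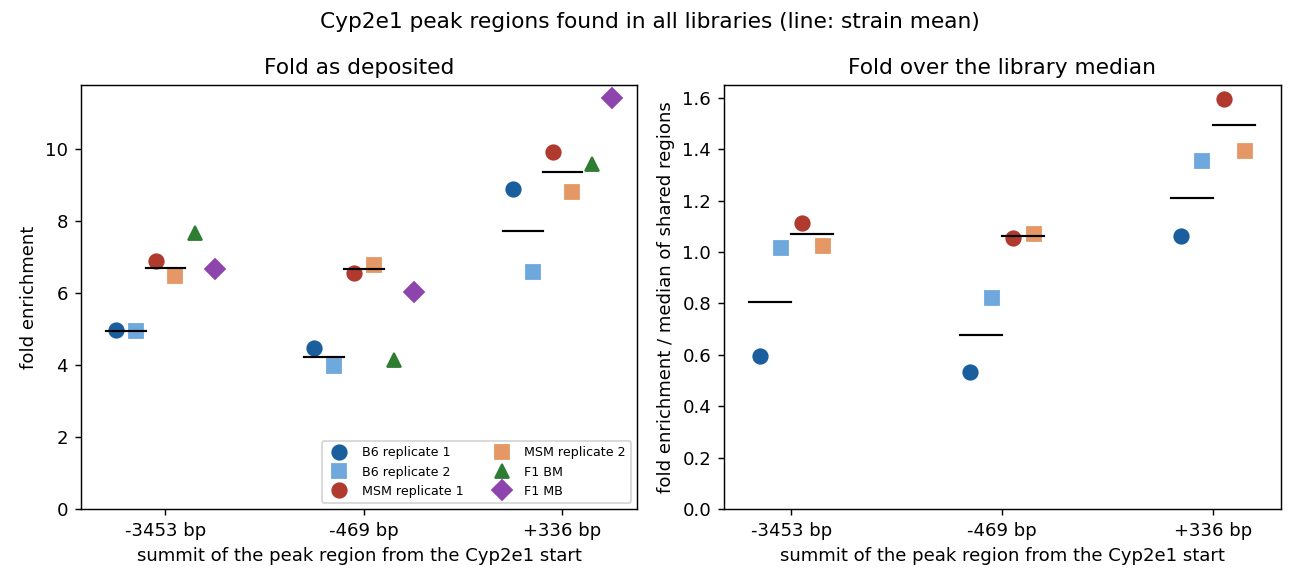
Fold enrichment of the 3 Cyp2e1 peak regions found in all 6 libraries, as deposited (left, all libraries) and over the median of the regions shared by the 4 parental libraries (right, parental libraries), with points for libraries and lines for strain means. In the left panel the B6 points at -3453 bp (4.97 and 4.94) and -469 bp (4.48 and 3.99) lie below the MSM points, and in the right panel B6 replicate 2 at -3453 bp (1.02) lies close to MSM replicate 2.

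The upstream peaks of Cyp2e1 were also wider in MSM. The peak of the promoter-proximal region was 443 and 346 bp wide in B6, 914 and 460 bp in MSM, 1172 bp in F1 BM and 628 bp in F1 MB. It began at -744 and -759 bp from the start in B6, at -1298 and -817 bp in MSM, at -1470 bp in F1 BM and at -962 bp in F1 MB. The peak centred near -3453 bp was 617 and 383 bp wide in B6, 770 and 786 bp in MSM, 818 bp in F1 BM and 594 bp in F1 MB. Widths of single peaks were read after seeing the data and were not tested, and B6 replicate 2, with the shortest list, had the narrowest peak at both places.

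The hybrids were set beside the range of the 4 parental libraries, with no test because each cross had 1 library. In covered length, F1 BM was above that range at 5 of 9 genes, Glul, Slc1a2, Oat, Cyp2e1 and Cyp1a2, against 14.3% of all genes, and below it at 0, against 4.88%. With the same covered length taken from each list, F1 BM was above it at 2 of 8 genes, Cyp2e1 and Rnf43, against 14.5% of all genes, and below it at 1, Axin2, against 10.6%. In highest fold, F1 BM was above it at 1 of 8 genes, Cyp1a2, against 0.442% of all genes, and below it at 2, Axin2 and Lgr5, against 61.6%. The whole list of F1 BM had low folds, so its ranks within the library were compared too. In rank F1 BM was above the parental range at 5 of 8 genes (Tbx3, Oat, Cyp2e1, Cyp1a2 and Rnf43), against 19.1% of all genes, and below it at 0, against 17.5%. Its ranks were 83.4 at Tbx3, 78.3 at Oat, 97.9 at Cyp2e1, 92.7 at Cyp1a2 and 74.8 at Rnf43.

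F1 MB was above the parental range of highest fold at 1 of 8 genes, Cyp2e1, against 2.89% of all genes, and below it at 2, Tbx3 and Rnf43, against 30.9%. In covered length it was above at 0 of 9, against 1.35%, and below at 2, Axin2 and Lgr5, against 18.7%. In rank it was above at 1 gene, Cyp2e1 (15.2% of all genes), and below at 2, Tbx3 and Rnf43 (24.6%). In rank, a scale chosen after seeing the data, Cyp2e1 was above the parental range in both hybrids. This is 1 of 8 genes, and no share over all genes was obtained for both hybrids together. In fold as deposited, F1 BM (9.59) lay within the parental range at Cyp2e1.

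**Figure D5:**
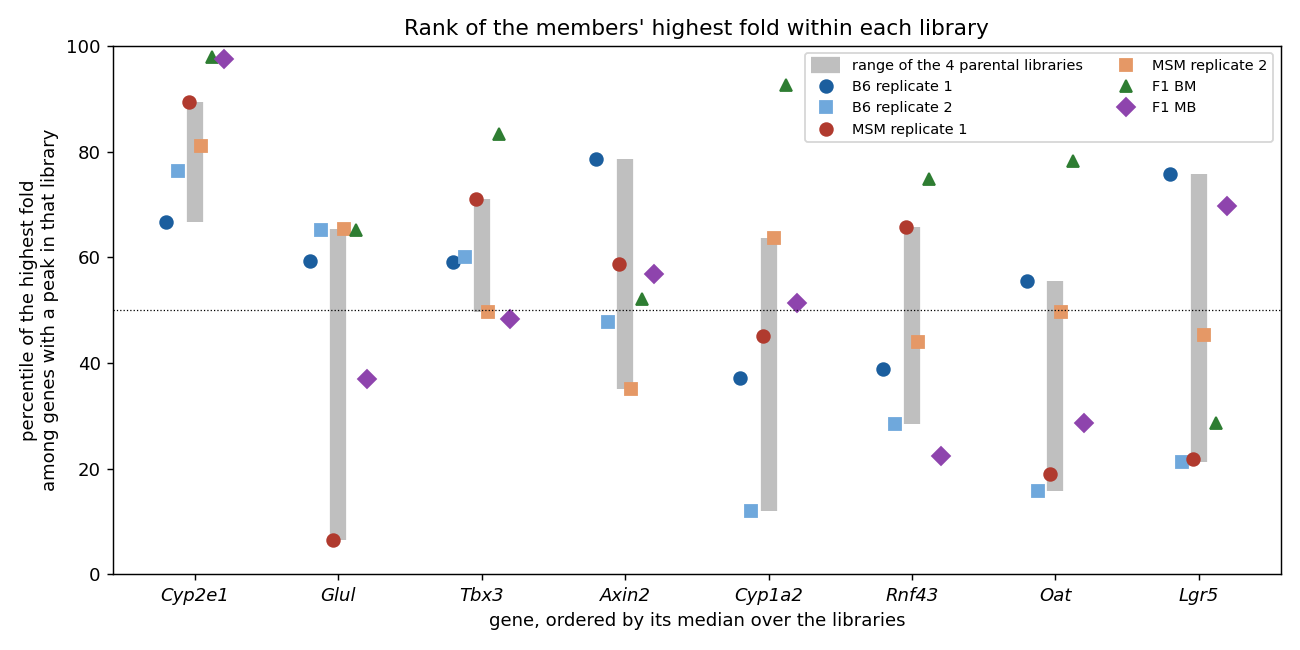
Percentile of each gene's highest fold among all genes with a peak in the same library, for the 8 pericentral genes with a peak in every library, with 1 point per library and a grey bar for the range of the 4 parental libraries. Cyp2e1 ranks at 97.9 in F1 BM and 97.6 in F1 MB, above its parental range, and F1 BM lies above the bar at 5 genes.

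Other genes of the same zone and of the Wnt pathway were read in the same way. Of 12 other pericentral genes, 9 had a peak at the start in all 6 libraries, against 23.6% of all genes. limma called none of the 10 with a peak in every parental library. At an unadjusted p under 0.05 it had 1 of them, beside 532 of all 6706 genes. The highest mean folds were those of Nr1i3, which encodes the xenobiotic sensor CAR (15.7 and 7.86 in B6, 15.2 and 11.8 in MSM) and, among others, Cyp27a1, an enzyme of bile acid synthesis (mean 10.4). Both MSM libraries were above both B6 libraries at Cyp2a5, a coumarin hydroxylase (5.92 and 3.93 against 8.26 and 7.46), and at the retinal dehydrogenase Aldh1a1 (5.36 and 5.58 against 7.18 and 8.74). Both B6 libraries were above at the glutathione transferase Gstm1 (12.1 and 7.22 against 6.12 and 6.76). These are 2 and 1 of the 10, where the shares over all genes were 8.59% and 10.8%.

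Of 24 further Wnt pathway genes, 12 had a peak at the start in all 6 libraries, against 23.6% of all genes. None stood there in any library at 6 of them, against 54.2% of all genes. limma called none of the 12 with a peak in every parental library. At an unadjusted p under 0.05 it had 1 of them, beside 532 of all 6706 genes. The highest mean folds were those of the T cell factor gene Tcf7l2 (9.38), the Wnt co-receptor gene Lrp5 (9.38) and the kinase gene Csnk1a1 (9.11). Both MSM libraries were above both B6 libraries at 3 genes, among them the Wnt receptor gene Fzd8 and the co-receptor gene Lrp6, and both B6 libraries were above at 2, Apc, a member of the beta-catenin degradation complex, and Notum, a secreted Wnt inhibitor. These are 3 and 2 of 12 genes, beside the 8.59% and 10.8% of all genes. Lrp6 had 4.36 and 5.59 in B6 and 7.19 and 9.48 in MSM, and Notum had 10.1 and 7.01 in B6 and 5.06 and 5.61 in MSM.

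Of 12 periportal genes, 11 had a peak at the start in all 6 libraries, against 23.6% of all genes. limma called none of the 11 with a peak in every parental library. At an unadjusted p under 0.05 it had 2 of them, beside 532 of all 6706 genes. Both MSM libraries were above both B6 libraries at 3 of the 11, against 8.59% of all genes, among them Ass1, of the urea cycle, and G6pc, the last enzyme of gluconeogenesis. Both B6 libraries were above at 0, against 10.8%. Ass1 had 11.1 and 7.81 in B6 and 13.7 and 12.7 in MSM. Among the highest mean folds were those of the urea cycle genes Asl (14.1) and Ass1 (10.4). The median log2 ratio of MSM to B6 in highest fold as deposited was -0.05 over the 8 pericentral zonation genes, 0.12 over the other pericentral genes, 0.26 over the periportal genes and -0.13 over the Wnt pathway genes, against -0.02 over all genes.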

How the data were processed

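H3K9ac ChIP-seq was measured in 6 adult mouse livers, and the 6 input libraries were not analysed here. The authors trimmed adaptors with Trim Galore and mapped pairs of 50-bp reads to mm10 (GRCm38). The study's methods name Bowtie 2 for the mapping, while the submitters' processing notes name HISAT2, SAMtools and MACS2 without roles or versions. The reference is the B6 sequence for either strain, so MSM reads over differing or repeated sequence may have been lost or misplaced. The peak caller's threshold and use of the input are not given in the sources used here.

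The deposited lists, 1 per library, gave for each peak a fold enrichment, which the authors' caller wrote as a linear ratio. The −log10 of the p-value and of the q-value were deposited beside it. The lowest −log10 q was between 1.30 and 1.35 in the 6 lists, so every listed peak had a q under 0.05. The deposited score was not used. No counts of reads were used, so depth was not used here and the number of libraries limits the precision. An absent peak may be one too weak for that library.

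Per gene (1 entry per protein-coding symbol, GENCODE M21), the highest fold and covered length were taken over the gene body joined with 5 kb either side of the start. Peaks of all lists overlapping by at least 1 bp were united into regions, whose summit is that of the peak with the highest fold. B6 and MSM were compared by overlap of their libraries, by a two-sided exact permutation test, and by limma 3.58.1 (R 4.3.3) on log2 highest fold, centred on each library's median, with a trend and Benjamini-Hochberg adjustment at 0.05. Other steps used Python 3.11.15, numpy 2.4.6 and pysam 0.24.0. Functions were tested on simulated data. Each mouse gave 1 library, so p-values rest on the spread between these libraries only, which limma pools over genes. Differences between mice and between library preparations cannot be told apart.

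All 10 genes are named. From the other lists, genes called by limma, up to 4 per list whose strains did not overlap in highest fold (by size of the gap), and the 3 with the highest mean fold are named, apart from a few items not reported here. The members and lists were chosen with earlier results of these data known. Alternatives covered list length, a −log10 q of at least 5, the window, the overlap, scaling, the replicate block and leaving out each library.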

Additional observations from a re-analysis of the deposited data

How the results depend on the processing

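The count of pericentral genes called by limma was 0 in each alternative run. With the replicate block the numbers of all genes called were 20 with MSM higher and 11 with B6 higher, and of all regions 13 and 5. The shared replicate numbers are not stated to pair the mice, and the correlation of same-numbered deviations was -0.02, the same for both numbers because each strain has 2 libraries. Genes with B6 higher numbered 0 with fold as deposited, with the same number of peaks, or with a mean fold of at least 5. Regions called numbered 0 in each direction with fold as deposited or quantile normalization.

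Leaving out each parental library gave 0 to 14 genes with MSM higher and 0 to 13 with B6 higher by limma, and 0 to 7 and 0 to 1 regions. One strain then has a single library, which is assumed to vary like the 2 of the other strain, so these fits say little of stability. Among pericentral genes, leaving out 1 library gave 0 to 7 with MSM above and 0 to 5 with B6 above in highest fold. The 7 and the 5 stand beside 65.4% and 67.0% of all genes. In covered length the counts were 1 to 5 and 1 to 6. Shares over all genes were not obtained for these, so they are not read as a result. Pericentral regions with MSM above numbered 2 to 10, the 10 beside 62.0% of all regions. The fitted log2 difference ranged from -0.89 to 0.064 at Glul, from -0.27 to 0.16 at Oat and from -0.14 to 0.20 at Tbx3, and turned at Glul without MSM replicate 1 and at the other two without B6 replicate 1 or MSM replicate 1. At Tbx3 it was -0.0073 with fold as deposited.

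With the same number of peaks, covered length was above in MSM at 0 genes and above in B6 at 1, Rnf43. With the same covered length these counts were 2 and 1, Axin2 being the gene with B6 above. At a −log10 q of at least 5 both counts were 0. Shares over all genes were not obtained for these counts, so they describe the listed genes alone. The difference at Oat was -437, -126 and -176.5 bp under these alternatives, and at Cyp2e1 1190 bp for lists of equal number and 1419.5 bp at that −log10 q, each with overlapping strains. Peaks at the start in all libraries were counted in 1 gene with the same covered length (11.4% of all genes) and in 3 at that −log10 q (19.3%). With the same covered length, F1 BM was above the parental range in covered length at 2 genes (14.5% of all genes) and below it at 1 (10.6%). In fold F1 BM was above it at 0 and below it at 0, and F1 MB was below it at 0 in fold and 1 in covered length. Shares over all genes were not obtained for these last counts, which are not read as a result. By rank within the library, chosen after seeing the data, MSM was above at 3 genes (17.5% of all genes), F1 BM above at 5 (19.1%) and below at 0 (17.5%). Fold over the library median, also chosen after seeing the data, gave 5 regions with MSM above (19.2% of all regions). The cause of these changes was not tested.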
